A study of Mus musculus with 63 samples.

Results

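Exosomal microRNAs (Exo-miRs) of plasma were compared between older and younger adenoma-bearing LS-G6pc-/- mice, which lack glucose-6-phosphatase in the liver only and model the hepatic side of glycogen storage disease type 1a. Chosen by their labels alone were the knockout mice diagnosed with hepatocellular adenoma (HCA) in the 2 oldest age groups. They were 16 of the 63 mice of the series, 10 of 16-18 months and 6 of 13-15 months. Amyloidosis, a deposition of misfolded protein, was diagnosed in 5 of the 10 HCA mice of 16-18 months and in 2 of the 6 HCA mice of 13-15 months. For comparison, LS-G6pc-/- mice without HCA numbered 6 at 16-18 months, 5 of them with amyloidosis, and 4 at 13-15 months, 1 of them with amyloidosis. WT mice numbered 3 at each age, with no amyloidosis. The sources used here name no promoter for the liver deletion. Blood was taken at sacrifice, so that no mouse was followed from the earlier to the later age.

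Plasma exosomes are small vesicles shed by many tissues, and the microRNAs they carry are short RNAs that pair through their seed, bases 2 to 8, with messenger RNAs and lower their output. Hepatocytes release miR-122 and miR-192, erythrocytes miR-451, leukocytes miR-142 and miR-223, and the imprinted Dlk1-Dio3 region encodes a large microRNA group that includes miR-409. HCA is a benign liver tumor that can turn malignant in glycogen storage disease, and the question was whether Exo-miRs differed between the later and the earlier age among mice that already carried it.

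No Exo-miR passed the test between the ages. Of the 61 Exo-miRs retained on the array cards, limma called 0 (0% of the 61) at an adjusted p of 0.05, and 3 (4.92%) had an unadjusted p below that value. These were miR-409-3p, which was higher at 16-18 months, and miR-133a and miR-193b, which were lower. miR-409-3p comes from the Dlk1-Dio3 region, miR-133a is best known from striated muscle, and miR-193b is abundant in liver and brown fat. miR-409-3p passed the threshold when levels were set against the wells that every mouse measured, with a difference of 2.72 ± 0.60 (SE) and an adjusted p of 0.0183. It was the 1 called (1.64%) on that scale, where 4 (6.56%) had an unadjusted p below 0.05. The others of these were miR-133a and miR-125b-5p, which were lower, and miR-139-5p, which was higher, while miR-193b was not among them. On the same scale the call was lost when run period was blocked (adjusted p = 0.231), in run period 2 alone (adjusted p = 0.63) and with the number of measured wells as a covariate (adjusted p = 0.0715).

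The sequences of some of the Exo-miRs with the smallest p, and of the family that holds several of them, are shown as background. No level or test below uses these sequences. They are RefSeq mature sequences of GRCm38.p6, and the seed is in capitals. Sequences were found for 14 of 17 assay names looked up, but not for miR-133a, miR-145 and miR-486. The assays on the card carry older names, and those without an arm were matched to the arm that the older name stood for.
miR-409-3p: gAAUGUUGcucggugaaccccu
miR-193b-3p: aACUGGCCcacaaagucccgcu
miR-125b-5p: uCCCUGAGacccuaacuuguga
let-7e-5p: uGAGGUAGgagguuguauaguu
miR-20b-5p: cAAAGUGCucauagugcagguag
miR-93-5p: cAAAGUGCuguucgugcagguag
miR-106a-5p: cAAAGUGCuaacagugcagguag
miR-20a-5p: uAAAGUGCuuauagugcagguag
miR-106b-5p: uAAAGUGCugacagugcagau
miR-17-5p: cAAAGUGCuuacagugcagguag
The last 6 share the seed AAAGUGC, and the first 4 have a seed each of their own. miR-409-3p lies at chr12:109743204-109743225 on the plus strand in the noncoding gene Mir409, miR-193b-3p at chr16:13449570-13449591 on the plus strand in Mir193b, and let-7e-5p at chr17:17830366-17830387 on the plus strand. miR-20b-5p and miR-106a-5p lie in 1 cluster on chromosome X, miR-93-5p and miR-106b-5p in another on chromosome 5, and miR-20a-5p and miR-17-5p in a cluster on chromosome 14.

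Each card holds 384 wells, of which 375 are microRNA assays, and gives for each a Ct, the PCR cycle at which fluorescence passes a threshold. A well was measured when its Ct lay from 14 to 32. A level is the mean Ct of all measured wells of the card minus the Ct of the assay, so it is a log2 value, 1 unit stands for about 1 PCR doubling, and a higher level means more microRNA relative to the rest of the card. In HCA mice of 16-18 months the cards had 68 to 134 measured wells (median 120.5), and in HCA mice of 13-15 months 96 to 187 (median 123). The means were 114 ± 20.6 (SD, n = 10) at 16-18 months and 134 ± 40.2 (SD, n = 6) at 13-15 months, a difference within the spread of the mice (exact two-sided permutation test, p = 0.217). The 2 cards with the most measured wells, 187 and 178, both belonged to 13-15-month mice and to the first of the 3 calendar years of card runs, called run periods here. In the second run period, with 7 and 4 mice, the means were 112 ± 23.5 at 16-18 months and 110 ± 17.6 at 13-15 months (exact permutation test, p = 0.9). The mean measured Ct was 27.5 ± 0.32 at 16-18 months and 27.0 ± 0.65 at 13-15 months (exact permutation test, p = 0.0882). The Ct of the small nuclear RNA U6 averaged 21.3 ± 2.30 and 19.98 ± 2.27 at these ages (exact permutation test, p = 0.292). The plant microRNA miR159a, a control that mice lack, was measured in 0 of the 16 HCA mice and in 5 of the 18 WT mice of all ages.

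**Figure D1:**
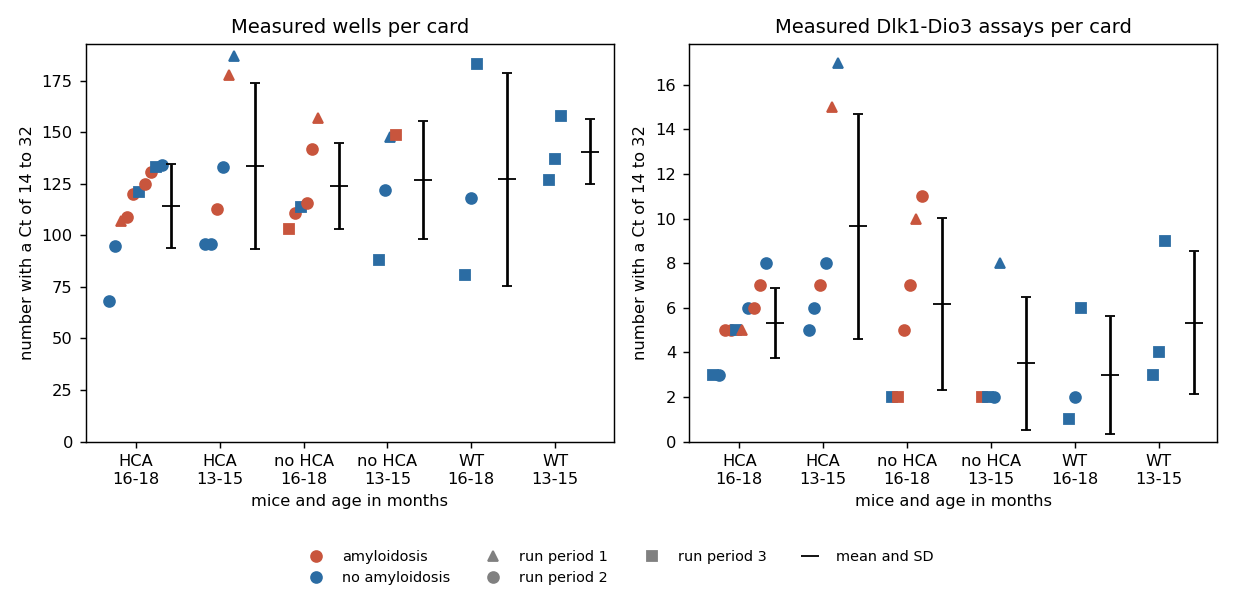
Number of wells (left) and of Dlk1-Dio3 assays (right) with a Ct of 14 to 32 on each card, 1 point per mouse, by group. Bars give the mean and SD, color the amyloidosis diagnosis and shape the run period. The 2 highest HCA cards of 13-15 months, with 187 and 178 wells and with 17 and 15 Dlk1-Dio3 assays, are triangles of run period 1.

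Most Exo-miRs had a lower level at 16-18 months, without passing the test. Of the 61, 50 had a negative and 11 a positive difference between 16-18 and 13-15 months, adjusted for amyloidosis, with a median of -0.70 on the log2 scale. This direction depended on the scale and on the mice included. Set against the mean of the 44 wells measured in all 63 mice (40 microRNA assays and the 4 U6 wells), 35 were negative and 26 positive with a median of -0.13, and against U6 alone 19 were negative and 42 positive with a median of 0.34. With the number of measured wells as a covariate the median was 0.05. Those 44 wells stood 1.89 ± 0.88 above the card mean at 16-18 months and 2.49 ± 1.09 above it at 13-15 months (exact permutation test, p = 0.249). Differences are therefore given as measured and, where named so, relative to the median of the 61.

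**Figure D2:**
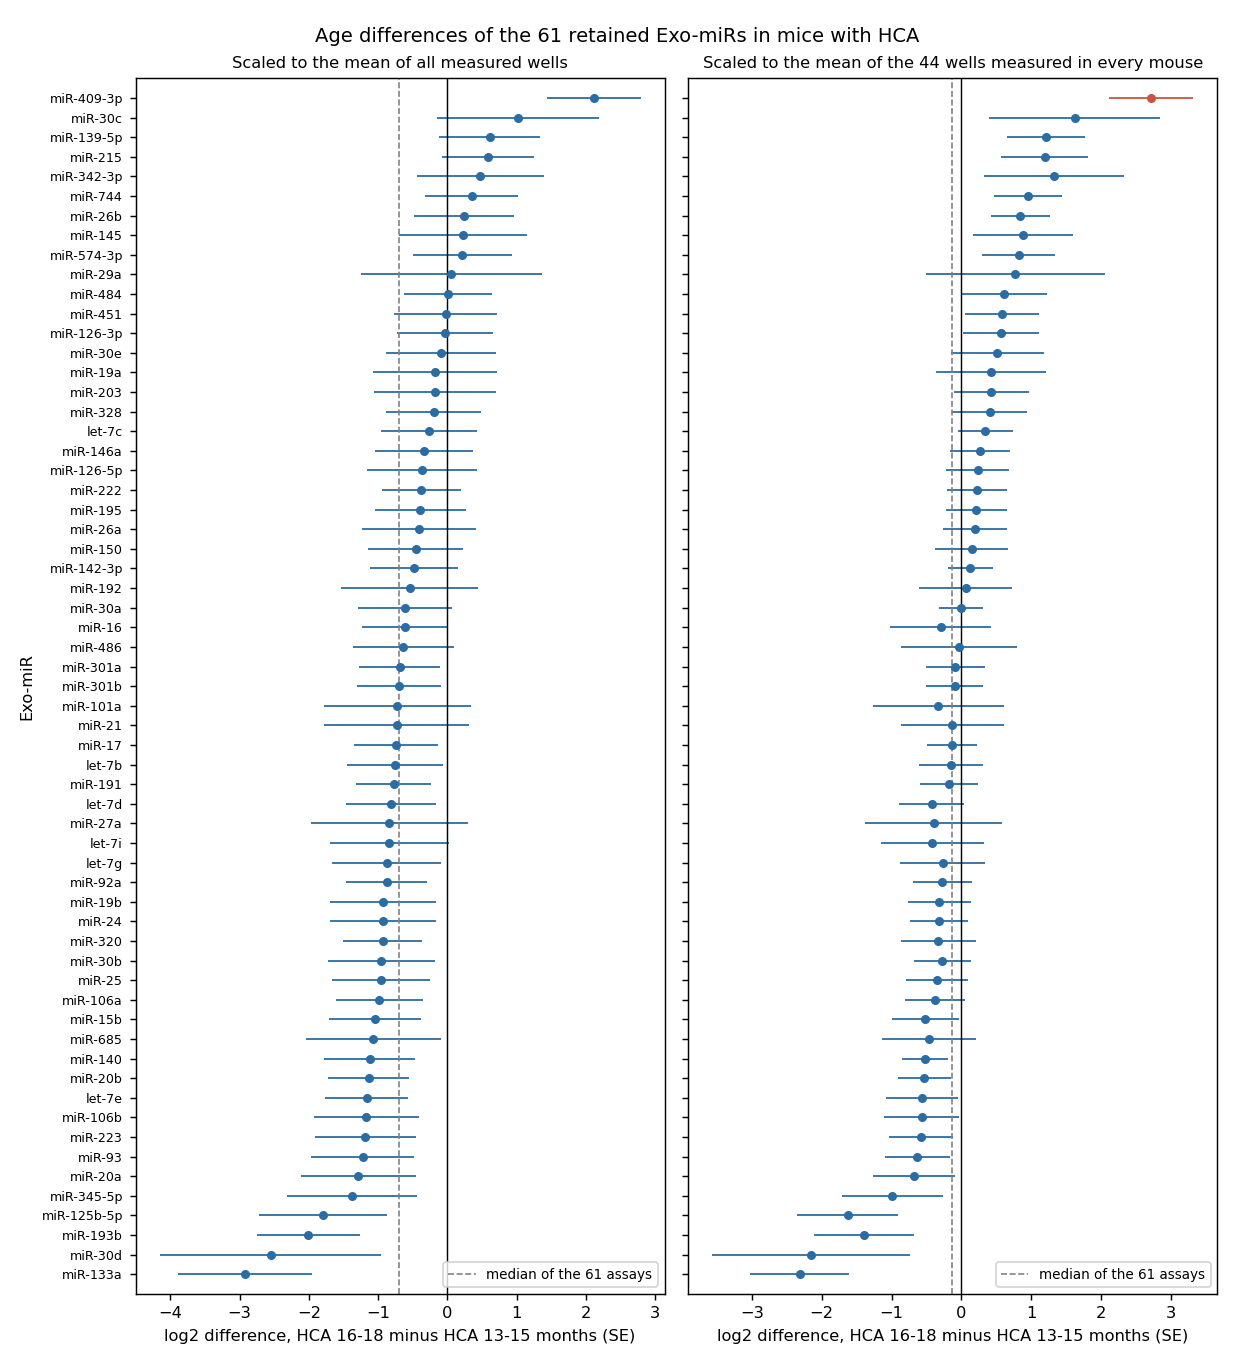
Log2 difference (HCA 16-18 minus HCA 13-15 months, adjusted for amyloidosis, bars SE) of each of the 61 retained Exo-miRs, with levels set against all measured wells (left) or the 44 wells measured in every mouse (right). The dashed median moves from -0.70 to -0.13 between the panels, and miR-409-3p is the highest in both and the one point in red, past an adjusted p of 0.05, on the right.

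miR-409-3p was measured in all 16 mice. Its lowest, median and highest levels were -1.74, -0.63 and 1.85 in HCA mice of 16-18 months, against -4.64, -1.80 and -1.25 in HCA mice of 13-15 months. The groups overlapped by a small margin: 9 of the 10 mice of 16-18 months lay above the highest mouse of 13-15 months. Raw Ct ran from 25.5 to 28.7 (median 28.0) at 16-18 months and from 27.4 to 31.5 (median 29.4) at 13-15 months, where a lower Ct means more microRNA. The adjusted difference was 2.11 ± 0.68 (SE; 95% interval 0.71 to 3.52), or 2.81 above the median of the 61, with an unadjusted p of 0.00502 and an adjusted p of 0.205 in limma. Scaled to the 44 wells measured in every mouse the levels were -4.06, -2.14 and -0.89 at 16-18 months and -7.41, -4.81 and -3.20 at 13-15 months. Leaving out each mouse in turn gave differences of 1.67 to 2.41 (adjusted p 0.129 to 0.41), and on the scale of the 44 wells 2.22 to 3.02, with 13 of 16 past the threshold. Also on the scale of the 44 wells, the difference of miR-409-3p was 2.45 ± 0.72 with run period as a block, 2.53 ± 0.89 in run period 2 alone and 2.30 ± 0.59 with measured wells as a covariate, and none of these passed the threshold.

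The difference in miR-409-3p had the same sign with and without amyloidosis. Without it, the level averaged -0.15 ± 1.47 (SD, n = 5) at 16-18 months and -2.37 ± 1.54 (n = 4) at 13-15 months. With it, the level averaged -0.32 ± 0.61 (n = 5) at 16-18 months and -2.27 ± 1.39 (n = 2) at 13-15 months. The amyloidosis term itself was -0.07 ± 0.66 (SE) for this Exo-miR (limma, adjusted p = 0.958). Over the run periods, the difference of means was 2.27 in the second, with 7 and 4 mice, and 0.40 in the first, with 1 mouse and 2 mice. The third run period held only the 2 highest mice of 16-18 months and none of 13-15 months. With run period as a block the difference was 1.75 ± 0.63 (SE), with an adjusted p of 0.398.

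**Figure D3:**
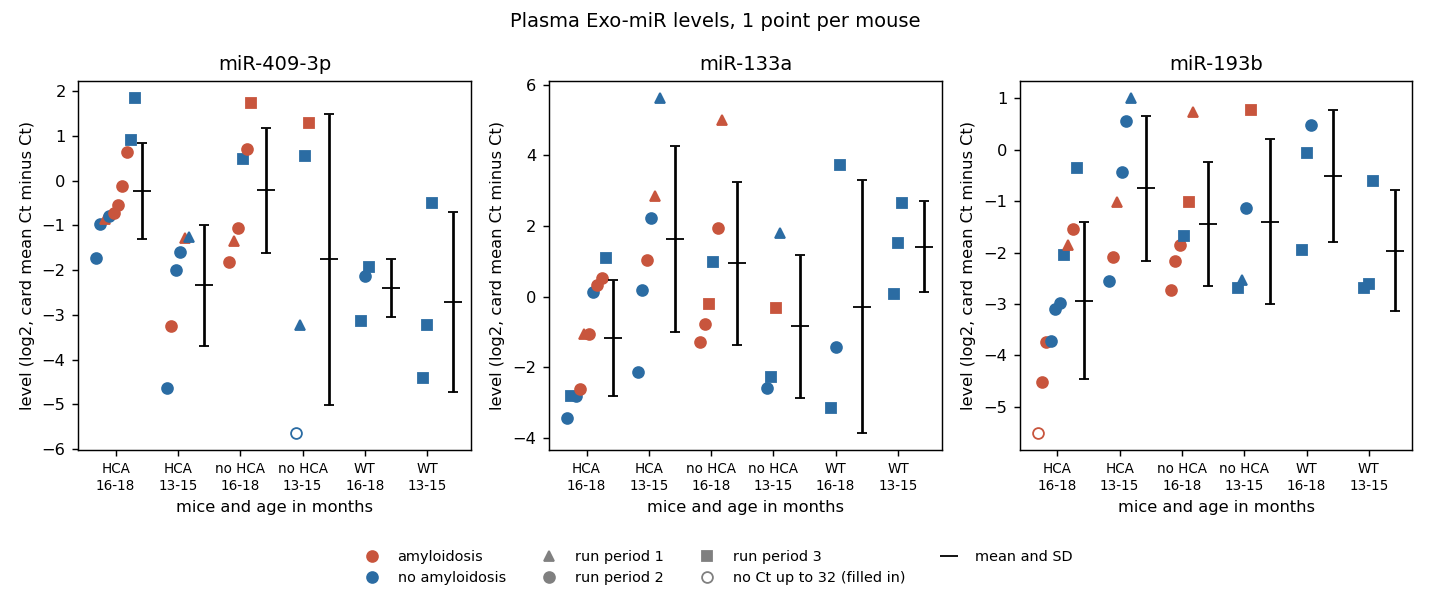
Levels (log2, card mean Ct minus Ct) of the 3 Exo-miRs with an unadjusted p below 0.05 in LS-G6pc-/- mice with HCA, LS-G6pc-/- mice without HCA and WT mice, 1 point per mouse, with the mean and SD. Open points had no Ct up to 32 and were filled in at 1 below the lowest level. In the left panel 9 of the 10 HCA mice of 16-18 months lie above all HCA mice of 13-15 months, whereas the other panels overlap more widely.

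**Figure D4:**
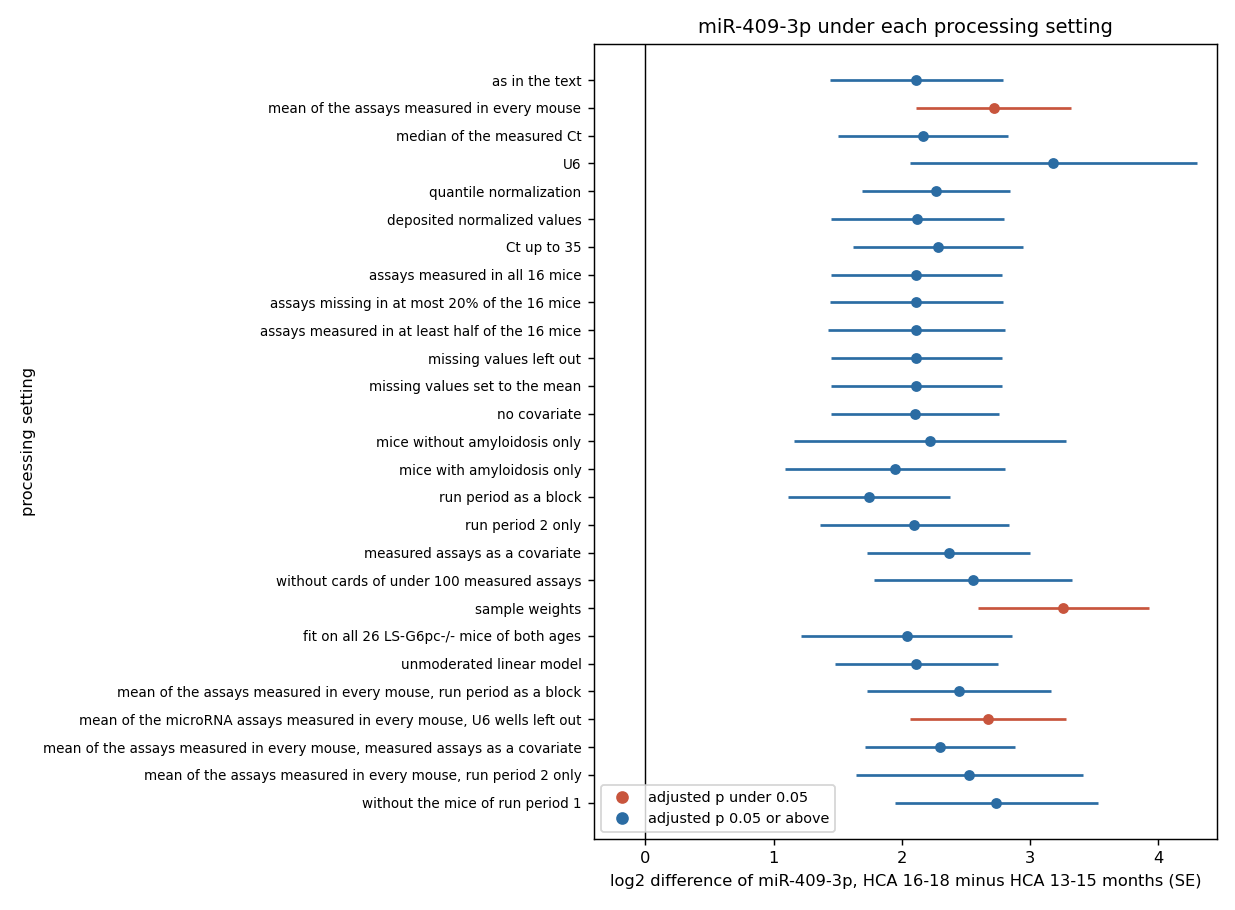
Log2 difference of miR-409-3p (HCA 16-18 minus HCA 13-15 months, bars SE) under each processing setting except the rank-sum test. The points lie between 1.75 and 3.26, all above 0, and 3 settings shown in red passed an adjusted p of 0.05.

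The mice without HCA and the WT mice did not show a difference in miR-409-3p that passed the test. Without HCA, its levels were -1.83, -0.29 and 1.73 (lowest, median and highest of 6) at 16-18 months. At 13-15 months they were -5.64, -3.22, 0.54 and 1.28, the first of these filled in for a well without a Ct up to 32. WT mice had -3.14, -2.13 and -1.93 at 16-18 months and -4.41, -3.23 and -0.49 at 13-15 months. The age difference was 0.68 ± 1.10 (SE) without HCA (adjusted p = 0.749) and 0.31 ± 1.15 in WT mice (adjusted p = 0.992). Tested directly, the difference of the age effects was 0.72 ± 1.34 for HCA minus no HCA (adjusted p = 0.951) and 1.80 ± 1.30 for HCA minus WT (adjusted p = 0.984), so that the higher level in older HCA mice was not shown to be particular to them.

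miR-409-3p was the only one of 41 assays for Dlk1-Dio3 microRNAs to be retained. The others were mostly below detection, 21 of them in all 16 mice. Cards of 16-18 months measured 3 to 8 of the 41 (median 5) and cards of 13-15 months 5 to 17 (median 7.5), so that fewer of them were detected at the age at which miR-409-3p was higher. Of the 9 that could be compared, 8 were measured in a smaller share of the mice of 16-18 months and 1 in a larger share, beside 63 in a smaller and 27 in a larger share of the 92 assays so compared over the whole card. The 2 cards of 13-15 months from run period 1 measured 17 and 15 of them, and without run period 1 the ranges were 3 to 8 at 16-18 months and 5 to 8 at 13-15 months.

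miR-133a had the most negative difference of the 61. It was measured in all 16 mice, at -3.45, -1.05 and 1.08 (lowest, median and highest) in HCA mice of 16-18 months, against -2.14, 1.63 and 5.63 in HCA mice of 13-15 months. All 10 mice of 16-18 months lay below the median of the mice of 13-15 months, yet only 4 of them below its lowest mouse. The adjusted difference was -2.92 ± 0.97 (SE), or -2.22 relative to the median of the 61, with an unadjusted p of 0.00671 and an adjusted p of 0.205 in limma. The highest levels of the earlier age, 5.63 and 2.85, were those of the 2 mice of run period 1, and without that run period the difference was -1.69 (adjusted p = 0.885). Without replicate 4 of the 13-15-month mice, which had the lowest level of its group, the difference was -3.59 and passed the threshold (adjusted p = 0.0469). In mice without HCA the age difference of miR-133a was 1.61 ± 1.10, and the difference of the age effects, HCA minus no HCA, was -4.35 ± 1.61 with an unadjusted p of 0.0105 and an adjusted p of 0.643. In WT mice the age difference of miR-133a was -1.70 ± 1.15, an SE shared by all 61 Exo-miRs. Its own WT levels had an SD of 3.58 (n = 3) at 16-18 months and 1.29 (n = 3) at 13-15 months.

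miR-193b was measured in 9 of the 10 HCA mice of 16-18 months and in all 6 of 13-15 months. Its levels were -5.51, -3.04 and -0.36 at 16-18 months, the lowest of them filled in, and -2.55, -0.72 and 1.01 at 13-15 months. Of the 10 mice of 16-18 months, 6 lay below the lowest mouse of 13-15 months and 1 lay above the median of that age. The adjusted difference was -2.01 ± 0.74 (SE), or -1.31 relative to the median of the 61, with an unadjusted p of 0.0131 and an adjusted p of 0.266. It was -2.09 without and -1.89 with amyloidosis. In WT mice the age difference was 1.45 ± 1.15, again with the shared SE. HCA minus WT was -3.46 ± 1.35 with an adjusted p of 0.984.

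The next Exo-miRs in the order of p all had negative differences and an adjusted p of 0.566 in limma. miR-20b had -1.73, -0.52 and 1.24 at 16-18 months and -0.55, 0.90 and 2.24 at 13-15 months, a difference of -1.13 ± 0.59. miR-125b-5p, which is abundant in mesenchymal cells, was measured in 8 of 10 and 6 of 6 mice and differed by -1.79 ± 0.93. Its medians were close, at -1.83 at 16-18 months and -1.79 at 13-15 months. The mice of run period 1 at 13-15 months had 1.94 and 2.24. In run period 2 its difference of means was 0.09, and over 27 settings its difference ran from -1.97 to -0.03. let-7e of the let-7 family differed by -1.17 ± 0.60. The others were miR-140, miR-320, miR-93, miR-223, miR-30d and miR-106a, with differences of -1.12, -0.94, -1.22, -1.18, -2.55 and -0.98. For all 9 the levels of the groups overlapped, and 0 of the 61 Exo-miRs (0%) had groups that did not overlap.

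miR-30d of the miR-30 family had a large difference that rested on 2 mice. It was measured in 8 of 10 and 6 of 6 mice, and its levels were -4.81, -1.64 and 3.44 at 16-18 months, the lowest filled in, and -3.51, -1.87 and 7.61 at 13-15 months. The 2 mice of run period 1 at 13-15 months had 7.61 and 7.22, at raw Ct of 18.8 and 18.9, while the other 4 mice lay between -3.51 and -1.11. In run period 2 alone the difference of miR-30d was 0.66. miR-30c, of the same family, differed by 1.02 ± 1.17, and its highest mouse of 16-18 months, replicate 3, had 11.4 at a raw Ct of 16.01, against 3.96 in the next mouse.

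The miR-17 clusters carry the seed AAAGUGC along with the miR-19 and miR-92 seeds and are known for roles in cell growth. They shared their sign with most of the 61, without passing the test. All 10 retained members had negative differences, beside 50 of all 61. They ran from -1.28 for miR-20a to -0.17 for miR-19a, and 0 passed the test. Their median was -0.97, beside -0.70 for all 61. On the scale of the 44 wells, 9 were negative and 1 positive with a median of -0.37. For all 61 there, 35 were negative and 26 positive with a median of -0.13. miR-106a turned positive against U6 (0.084). miR-20a had -1.96, 3.30 and 4.10 at 16-18 months and 1.61, 3.93 and 5.42 at 13-15 months. miR-106a had 1.21, 2.51 and 4.59 at 16-18 months and 2.79, 3.78 and 4.82 at 13-15 months, with all 6 mice of the earlier age above the median of the later.

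Of the other families, let-7, whose members restrain growth genes, had 6 retained members, all negative, with a median of -0.82. let-7e was the lowest, followed by let-7g at -0.87. The miR-30 family had 4 negative and 1 positive of 5 (median -0.61), and the miR-15 and miR-16 seed family 3 negative of 3 (median -0.61), from -1.05 for miR-15b to -0.39 for miR-195. miR-29a, the sole retained member of its family, differed by 0.06 ± 1.30, and by -1.53 with missing values left out, since replicate 2 of the 13-15-month mice had no Ct up to 32 for it. These signs stand beside 50 negative of all 61 and were not read as a direction of a family. No member of any of these families passed the test, and on the scale of the 44 wells their medians were -0.34, -0.01, -0.30 and 0.77.

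**Figure D5:**
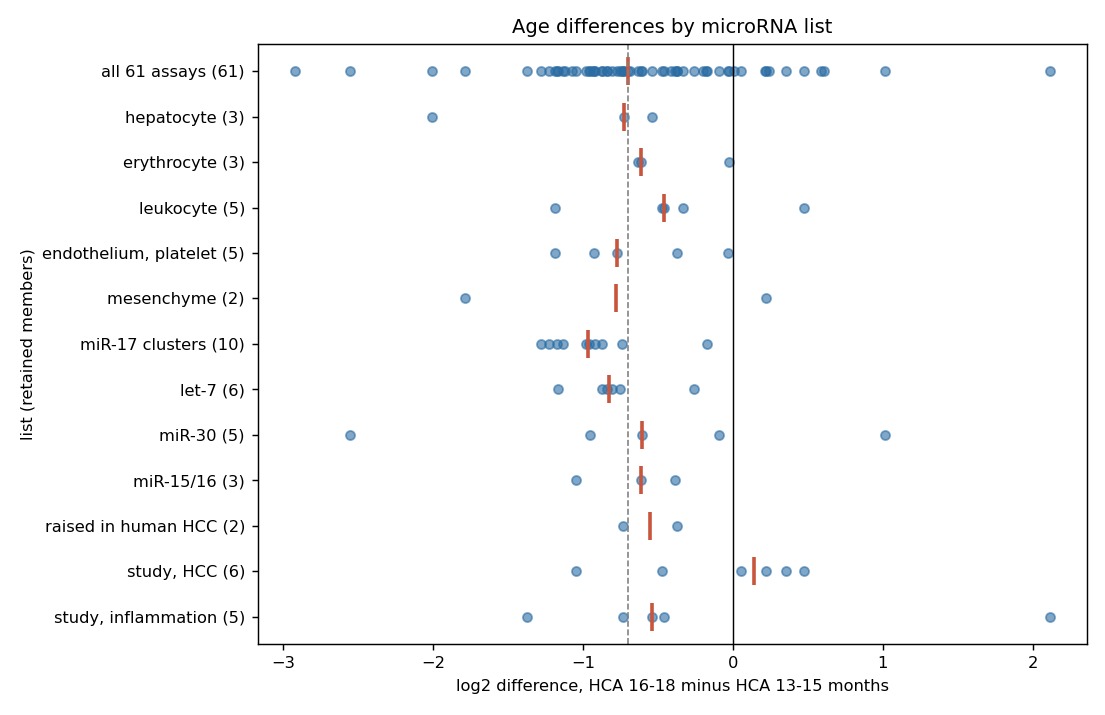
Log2 difference (HCA 16-18 minus HCA 13-15 months) of the retained members of each microRNA list with at least 2 of them, 1 point per Exo-miR, with the median of the list in red and that of all 61 as a dashed line. All 10 members of the miR-17 clusters lie below 0, between -1.28 and -0.17, as do 50 of all 61.

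Lists of microRNAs known from single cell types gave 0 called Exo-miRs each. Of all 61 Exo-miRs 50 were negative, against 35 on the scale of the wells measured in every mouse. The signs within a list were therefore not read as a direction of its cell type. The hepatocyte list kept 3 of 8 assays, miR-193b, miR-101a at -0.73 and miR-192 at -0.54. Set against the wells measured in every mouse, the list had 2 negative and 1 positive (median -0.33). Its defining member miR-122 was not retained, being measured in 8 of 10 HCA mice of 16-18 months and in 4 of 6 of 13-15 months. Where measured, miR-122 had -4.51, 4.29 and 6.28 at 16-18 months and -1.86, 4.57 and 6.96 at 13-15 months, so that its levels overlapped widely. The erythrocyte list had 3 of 3 negative (median -0.61), but miR-451 differed by only -0.025 ± 0.75 (SE). Set against the wells measured in every mouse, miR-451 was positive at 0.58. The list then had 2 negative and 1 positive (median -0.03). Its member miR-486 had -0.97, 3.16 and 5.36 at 16-18 months and 1.16, 4.25 and 6.44 at 13-15 months. miR-486 also had the smallest p for amyloidosis in the same fit, at -2.24 ± 0.71 with an adjusted p of 0.293, where limma called 0 of 61 (0%) and 2 (3.28%) at an unadjusted p. The leukocyte list had 4 negative and 1 positive of 5 (median -0.46), from -1.18 for miR-223 to 0.48 for miR-342-3p. Set against the wells measured in every mouse, it turned to 1 negative and 4 positive (median 0.14). The endothelial and platelet list had 5 negative of 5 (median -0.78). The mesenchymal list had 1 negative and 1 positive of 2, and the epithelial list miR-203 alone at -0.18 ± 0.89. Set against the wells measured in every mouse, the endothelial and platelet list had 3 negative and 2 positive (median -0.17). The mesenchymal list kept 1 of each sign there, and miR-203 was positive at 0.43. Of 5 assays for Exo-miRs widely described as raised in human hepatocellular carcinoma, 2 were retained. Of these, miR-21 differed by -0.73 ± 1.05 and miR-222 by -0.38 ± 0.57. Set against the wells measured in every mouse, miR-21 differed by -0.13 and miR-222 by 0.23. The share of erythrocyte RNA could not be read from the ratio of miR-451 to miR-23a, since miR-23a was not measured in every mouse.

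The Exo-miRs that the study tied to hepatocellular carcinoma (HCC) and to inflammation were chosen by it in comparisons that included these same mice, so that their counts are not independent evidence. In the HCC list, 4 of 6 were positive and 2 negative (median 0.14), with 0 called. Set against the wells measured in every mouse, 5 were positive and 1 negative (median 0.83). miR-145, from smooth muscle and stellate cells, had -4.22, -0.69 and 0.43 at 16-18 months and -5.22, -1.12 and 1.89 at 13-15 months. miR-744 differed by 0.35 ± 0.67, miR-342-3p by 0.48 ± 0.91 and miR-142-3p by -0.48 ± 0.64. miR-145, miR-342-3p and miR-29a turned negative when missing values were left out, since 1 mouse of 13-15 months had no Ct for each. In the inflammation list 4 of 5 were negative (median -0.54) and the exception was miR-409-3p. Set against the wells measured in every mouse, 2 were negative and 3 positive (median 0.06). miR-345-5p differed by -1.38 ± 0.94, miR-192 by -0.54 ± 0.99 and miR-150 by -0.46 ± 0.68. Of the other named Exo-miRs, let-7d differed by -0.81 ± 0.65, let-7i by -0.84 ± 0.86 and miR-328 by -0.20 ± 0.69. miR-130b, known from liver tumors, was measured in 6 of 10 HCA mice of 16-18 months and in 5 of 6 of 13-15 months.

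Detection itself was compared for 92 assays that were measured in at least 3 and missing in at least 3 of the 16 mice. Fisher's exact test called 0 (0%) after adjustment and 5 (5.43%) at an unadjusted p of 0.05. Of the 92, 63 were measured in a smaller share of the mice of 16-18 months, 27 in a larger and 2 in an equal share. miR-204, known from epithelia and the eye, was measured in 0 of 10 HCA mice of 16-18 months, which allows a share of up to 30%, and in 4 of 6 of 13-15 months (exact p = 0.00824, adjusted p = 0.657). With a Ct limit of 35 it was measured in 4 of 10 and 5 of 6. miR-322, miR-340-3p, rno-miR-224 and rno-miR-532-5p were each measured in 0 of 10 mice of 16-18 months and 3 of 6 of 13-15 months (exact p = 0.0357). The separate mouse assay miR-532-5p ran the other way, with 8 of 10 and 3 of 6 (exact p = 0.299). In run period 2 each of the 4 with a p of 0.0357 was measured in 0 of 7 and 1 of 4 mice. miR-128a followed, tied with other assays, with 1 of 10 and 3 of 6 (exact p = 0.118).

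The age comparisons in the other mice and the tests of their difference from HCA mice also gave no call. Without HCA limma called 0 of 61 (0%, with 1.64% at an unadjusted p), with 13 positive and 48 negative and a median of -0.88. In WT mice it called 0 of 61 (0%, and 0% at an unadjusted p), with 12 positive, 49 negative and a median of -0.44. The WT signs turned to 32 positive and 29 negative (median 0.12) when set against the wells measured in every mouse. On that scale mice without HCA had 21 positive and 40 negative (median -0.43). With single mice left out in turn, medians ran from -1.09 to 0.27 in WT mice and from -1.52 to 0.05 without HCA. These signs were therefore not read as a direction of age. The difference of the age effects was called for 0 of 61 between HCA and no HCA, with 1 (1.64%) at an unadjusted p, which was miR-133a. The next in that test were miR-345-5p at -2.71 ± 1.41, miR-193b at -2.26 ± 1.21, miR-685 at -2.62 ± 1.44 and miR-192 at -2.11 ± 1.41, all with an adjusted p of 0.951. Between HCA and WT it was called for 0 of 61, with 1 (1.64%) at an unadjusted p, which was miR-193b, followed by miR-409-3p, miR-301b at -1.34 ± 1.17, miR-139-5p at 1.45 ± 1.30 and miR-744 at 1.25 ± 1.23. The median SE of the difference was 0.73 between the ages with HCA, 1.00 without HCA and 1.15 in WT mice, so that the comparison groups were measured less precisely.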

How the data were processed

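RNA of plasma exosomes was reverse transcribed, pre-amplified and run on TaqMan array cards, 1 card per mouse. The authors deposited the Ct of every well, a log2 scale on which a larger number means less RNA, and log2 values normalized with PIPE-T to the mean measured Ct of the card. Wells that gave no Ct carry 40 in the deposited Ct table. The 63 single card files and that table held equal Ct. The labels number the age groups and the months come from the paper, which gives the earlier age also as 12-15 months.

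Levels were recomputed from Ct. Ct of 14 to 32 counted as measured, and Exo-miRs without such a Ct in over 5% of the 63 mice were dropped. Each gap was filled in at 1 below the lowest level of its Exo-miR. The deposited normalized values differed from these levels by at most 0.0275 before filling in. Ages were compared with limma (version 3.58.1, R version 4.3.3) with amyloidosis as covariate over the 16 HCA mice, with Benjamini-Hochberg adjustment over 61 Exo-miRs and a threshold of 0.05. The study's rank product takes no covariate and was not used. Any 2 mice shared at most 1 equal measured Ct. p-values measure the spread between mice, moderated by limma over the Exo-miRs. In WT mice this gave all 61 the same SE of 1.15, so WT SEs and p-values do not hold the spread of each Exo-miR. No depth beyond the number of measured wells is known.

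Named were the 12 Exo-miRs with the smallest p, those the study names (with miR-328, which the text of the paper does not name), up to 2 members of each list with the largest differences (fewer than the 4 first planned), and those with the smallest p for detection and interaction. miR-19a, miR-195 and miR-532-5p were named after their values were seen. The members and lists were chosen with earlier results of these data known. The fit and the permutation test were checked on simulated data. Alternatives were other scales, filters, Ct limits, ways to fill gaps, covariates, blocking on run period, smaller sets of mice, leaving out each mouse, sample weights, an unmoderated model and an exact rank-sum test. Those that join the scale of the 44 wells with another choice, leave U6 out of it or leave out run period 1 were chosen after seeing the data. Figures were drawn with Python (version 3.11.15) and matplotlib (version 3.10.9).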

Additional observations from a re-analysis of the deposited data

Results flagged for a closer look

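In 7 of 80 groups of named Exo-miRs or card measures the highest or the lowest mouse stood apart from the rest of its group by Dixon's test, which chance does in about 1 of 20. In HCA mice of 16-18 months these were replicate 3, with miR-30c at 11.4 (next 3.96) and miR-20a at -1.96 (next 0.90), replicate 8 with miR-30d at 3.44 (next -0.42), and replicate 9 with miR-203 at -4.06 (next -1.52). Replicate 3 had the highest U6 Ct of the group, 26.1, and replicate 9 the fewest measured wells, 68. In HCA mice of 13-15 months these were replicate 3 with let-7i at -3.98 (next -0.96), and replicate 2 with miR-342-3p at -5.86 (next -1.75) and miR-29a at -5.47 (next 0.05), both filled in for a well without a Ct up to 32. The part of these cards in the differences was not tested beyond leaving each out.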

How the results depend on the processing

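The count of called Exo-miRs between the ages was 0 as reported and 1, miR-409-3p, on the scale of the 44 wells, on that scale without U6 (adjusted p 0.0183 and 0.024) and with sample weights (adjusted p 0.00467). Leaving out each mouse gave 0 to 1 calls, and 0 to 2 on the scale of the 44 wells, where miR-409-3p was not called without replicates 2, 5 or 6 of the 13-15-month mice. Its difference was above 0 in every setting, from 1.17 as a difference of medians to 3.26 with sample weights. With run period as a block on the scale of the 44 wells 0 were called, and the smallest adjusted p was 0.231. The comparisons without HCA, in WT mice and of the age effects gave 0 calls in every setting run, leaving out each mouse included. Detection gave 0 calls in all 4 settings run, and was not run with single mice left out. Between the ages the other tools called 0, with 5 at an unadjusted p in the unmoderated model and 6 in the rank-sum test. The difference in measured wells per card was 2.21 in run period 2. No paired analysis was possible because different mice made up the age groups and the labels pair none of them.

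The sign of some differences turned in other settings, and the cause was not tested. On the scale of the 44 wells it was 0.13 for miR-142-3p, 0.14 for miR-150, 0.060 for miR-192, 0.40 for miR-328, 0.43 for miR-203 and 0.23 for miR-222. Against U6 it was 0.13 for miR-320, 0.084 for miR-106a, 0.34 for miR-21, 0.59 for miR-142-3p, 0.61 for miR-150, 0.52 for miR-192, 0.87 for miR-328, 0.43 for miR-486, 0.017 for miR-101a, 0.14 for miR-24, 0.89 for miR-203, 0.19 for let-7g, 0.69 for miR-222 and 0.37 for miR-301b. With quantile normalization it was 0.18 for miR-142-3p, 0.17 for miR-150, 0.15 for miR-192, 0.35 for miR-328, 0.23 for miR-486, 0.00017 for miR-24, 0.16 for miR-203 and 0.44 for miR-222. With missing values left out it was -0.51 for miR-145, -0.48 for miR-342-3p and -1.53 for miR-29a. With missing values set to the mean it was -0.67 for miR-145, -0.66 for miR-342-3p and -1.30 for miR-29a. Without the covariate it was -0.0027 for miR-29a. In mice without amyloidosis it was 0.57 for miR-328, -0.22 for miR-342-3p, -0.19 for miR-744 and -1.79 for miR-29a. In mice with amyloidosis it was -0.13 for miR-145, 0.084 for miR-192, 0.37 for miR-16, 0.048 for miR-203 and 0.21 for miR-222. With run period as a block it was -0.0093 for miR-145, -0.56 for miR-29a and 0.022 for miR-203. In run period 2 it was 0.66 for miR-30d, 0.52 for miR-21, 0.18 for miR-192 and 0.74 for miR-203. With measured wells as a covariate it was 0.053 for let-7i, 0.84 for miR-21, 0.22 for miR-142-3p, 0.88 for miR-192, 0.26 for miR-328, 0.56 for miR-101a, 0.088 for miR-24, 1.11 for miR-203 and 0.067 for miR-685. Without cards of under 100 measured wells it was -0.76 for miR-145, 0.077 for miR-16, -0.18 for miR-30c and 0.13 for miR-222. With sample weights it was 0.13 for miR-21, 0.51 for miR-192, 0.14 for miR-328, 0.27 for miR-101a, 0.51 for miR-203, 0.18 for miR-222 and 0.041 for miR-685. Over all 26 LS-G6pc-/- mice of both ages it was -0.052 for miR-29a. As a difference of medians it was 0.23 for miR-30d, 0.13 for miR-21, 0.91 for miR-192, -0.54 for miR-342-3p, 0.35 for miR-101a, 0.69 for miR-203 and 0.055 for miR-685. On the scale of the 44 wells in run period 2 it was 0.74 for miR-30d. Without run period 1 it was 0.98 for miR-30d. Over all 61 Exo-miRs this setting had 32 positive and 29 negative (median 0.14), beside 11 and 50 as reported. Here and where the scale of the 44 wells was joined with another choice, values were taken only for Exo-miRs with the smallest p. Others that turned in these settings are therefore not listed.

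Leaving out each mouse gave differences of -0.49 to 0.11 for miR-328, -0.48 to 1.11 for miR-342-3p, -0.12 to 0.66 for miR-744, -1.53 to 0.72 for miR-29a, -0.14 to 1.11 for miR-139-5p, -0.51 to 0.84 for miR-145, -1.36 to 0.084 for miR-21, -1.04 to 0.24 for miR-192, -0.67 to 0.56 for miR-203 and -0.10 to 1.62 for miR-30c. The precision was set by the 10 and 6 mice, with a median SE of 0.73.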
